A study of Drosophila melanogaster with 6 samples.

Results

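The core circadian clock genes of Drosophila melanogaster, per, tim, vri, Pdp1, cwo, Clk, cyc and cry, were followed across 6 RNA-seq libraries of whole female antennae. They were picked by FlyBase symbol and are 8 of the 17698 genes listed for each library. All 8 were among the 9181 genes expressed highly enough to be tested. PCD-blocked flies had the genotype peb-Gal4/+;Or49a-GFP/UAS-p35, and control flies the genotype peb-Gal4/+;Or49a-GFP/+. Both groups thus carried the peb-Gal4 driver, which is active in olfactory sensory neurons, and an Or49a-GFP reporter. The PCD-blocked flies in addition expressed p35, a baculoviral inhibitor of caspases that blocks programmed cell death (PCD). Each group had 3 libraries, each made from the antennae of about 350 flies kept at 25 °C in cycles of 12 h light and 12 h dark. The labels join 1 PCD-blocked and 1 control library into each of 3 sample pairs. Neither the age of the flies nor the time of day at which antennae were taken is given by the labels.

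The fly clock is a set of interlocked feedback loops of transcription. The proteins of Clk and cyc bind together to E-box sequences and activate per, tim, vri, Pdp1 and cwo. The per and tim products return to the nucleus and repress Clk and cyc, cwo competes at E-boxes, and vri represses while Pdp1 activates Clk. The product of cry absorbs blue light and leads to the breakdown of the tim protein. In fly heads, transcripts of per, tim, vri, Pdp1 and cwo are known to peak from evening to early night and those of Clk and cry around morning, while cyc transcripts do not cycle. Antennal neurons have a clock of their own, which is known to be needed for the daily rhythm of their odour responses.

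Libraries held 15588725 to 17808516 gene counts. Levels are given as CPM, in which every library is brought to the same total, after TMM scaling, which matches libraries on the bulk of their genes. The olfactory markers of the antenna were high: the co-receptor gene Orco had 3080 to 3127 CPM in PCD-blocked and 2958 to 3066 CPM in control libraries. The odorant-binding protein gene lush had 1534 to 1596 CPM in PCD-blocked and 2001 to 2105 CPM in control libraries, a fall that passed the test. Of the genes of Johnston's organ, the hearing organ of the antennal stalk, only nan and iav were read, and both were low. In any library nan had at most 0.786 CPM and iav at most 2.36 CPM. How much of this organ the samples held was not tested. The 10 photoreceptor markers, of which 4 were expressed enough to test, summed to 16.2 to 19.2 CPM in PCD-blocked and 8.46 to 9.88 CPM in control libraries. Most of it came from trp, while the rhodopsin gene ninaE had at most 0.231 CPM in any library.

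The clock genes differed widely in abundance. Per kilobase of exon, the scale on which genes can be compared, cry was the highest, with 216 ± 9.18 CPM per kb in PCD-blocked and 263 ± 2.57 CPM per kb in control antennae (SD, n = 3 per group, as for every SD below). Pdp1 followed with 38.5 ± 1.36 CPM per kb in PCD-blocked and 38.8 ± 2.22 CPM per kb in control antennae. Next came cyc, tim and cwo, whose ranges over the 6 libraries overlapped: 22.9 to 29.2 CPM per kb for cyc, 14.7 to 39.4 for tim and 22.3 to 26.6 for cwo. The range of tim also overlapped that of Pdp1. Clk lay at 10.6 to 12.7 CPM per kb, within the range of vri, which was 6.86 to 14.8. The lowest of the 8 was per, at 3.55 to 6.07 CPM per kb, below every vri library. The length of a gene is that of its merged exons, so a gene read mostly from short transcripts is understated on this scale.

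**Figure D1:**
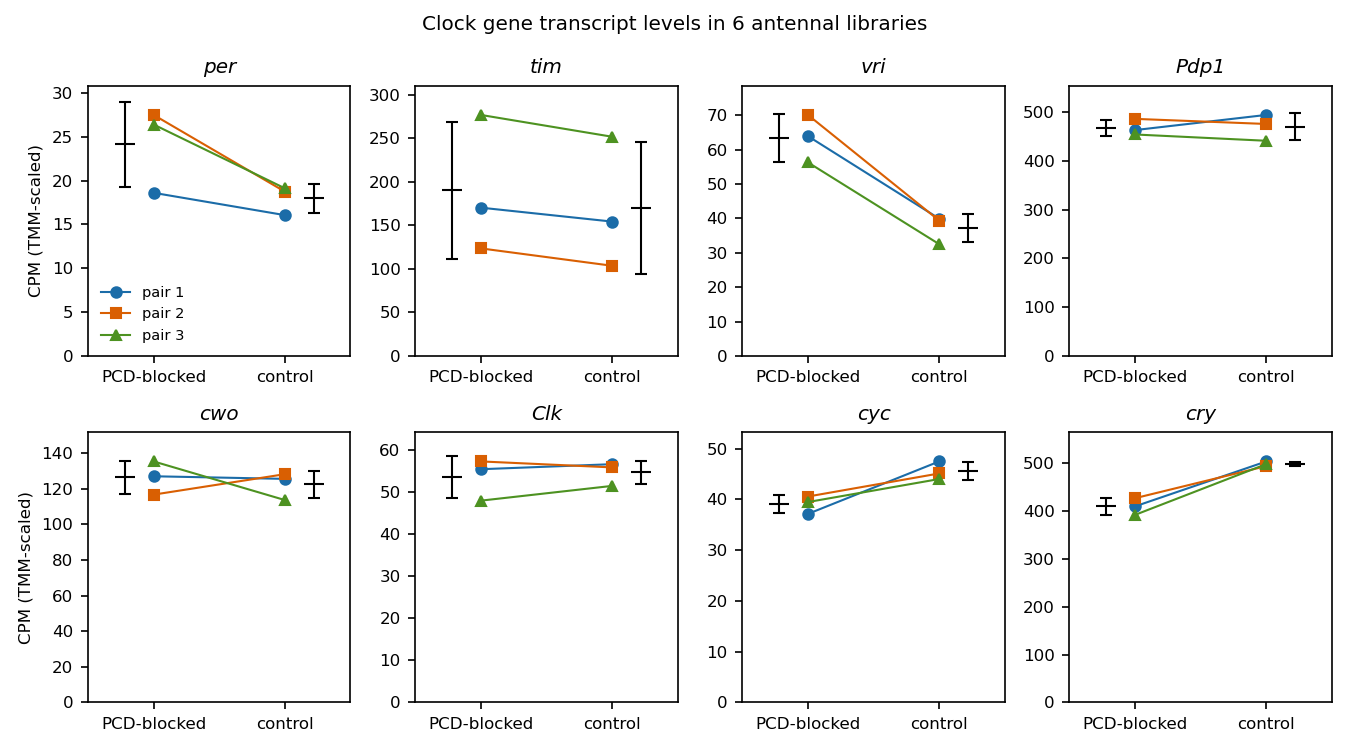
Level of each clock gene in every library, in TMM-scaled CPM on axes that start at 0. Markers joined by a line are the PCD-blocked and control library of 1 sample pair, and black bars are the group mean and SD over 3 libraries. The 3 pairs of tim lie apart from each other in both groups, and the vri values of PCD-blocked libraries, 56.3 to 70.1 CPM, all lie above those of the controls, 32.5 to 39.9 CPM.

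Among the sample pairs, tim (FBgn0014396, chromosome 2L, 3493986 to 3508119) had the smallest p of all tested genes. It encodes the light-sensitive partner of the per protein. In PCD-blocked libraries of pairs 1, 2 and 3 it had 170.4, 124 and 277 CPM, and in the control libraries of the same pairs 154, 104 and 252 CPM. In both genotypes pair 2 was the lowest and pair 3 the highest, and no library of a pair fell within the range of another pair. Of all tested genes, 5.41% had their pairs apart in this way.

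The difference among pairs was tested for each gene with genotype in the model (edgeR quasi-likelihood F-test, p adjusted over all 9181 genes). It passed for tim alone of the 8 clock genes, with an adjusted p = 3.78e-05. Over all tested genes 29, or 0.316%, passed. The mean of pair 1 was 162 CPM and that of pair 2 was 114 CPM, a log2 difference of 0.52 ± 0.05 (SE, edgeR adjusted p = 0.0185). No other gene passed for that contrast, so that 0.0109% of the tested genes were called. Pair 1 was 0.70 ± 0.04 (SE) lower than pair 3 on the log2 scale (162 against 264 CPM, adjusted p = 0.000749 with edgeR). That contrast called 0.98% of tested genes, 0.381% higher and 0.599% lower in pair 1. Pair 2 was 1.22 ± 0.04 (SE) lower than pair 3 (114 against 264 CPM, adjusted p = 1.21e-05 with edgeR). That contrast called 4 genes, or 0.0436%, of which 3 were lower in pair 2 (0.0327%).

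For a gene of its abundance this spread was unusual. The coefficient of variation of tim within a group was 41.3% over the PCD-blocked and 44.3% over the control libraries. For the 2175 tested genes with a mean of at least 100 CPM, the median coefficient of variation was 3.14% in PCD-blocked and 3.78% in control libraries. The 3 pair means of tim covered a range of 1.22 on the log2 scale, and no other of those 2175 genes had a range that wide. The next was the cytochrome P450 gene Cyp6a8 with 0.61. Over all tested genes 103 others reached the range of tim, all of them with a mean of at most 40.5 CPM. The call of tim among pairs was made in all 12 alternatives that kept genotype in the model, each library left out in turn included, with an adjusted p of at most 0.0108. Without the genotype term edgeR called 0 genes, 170 having an unadjusted p under 0.05, and the adjusted p of tim was 1. The contrast of pair 1 with pair 2 lost its call without PCD-blocked 2 (edgeR adjusted p = 0.344), control 2 (0.346) or control 3 (0.166).

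**Figure D2:**
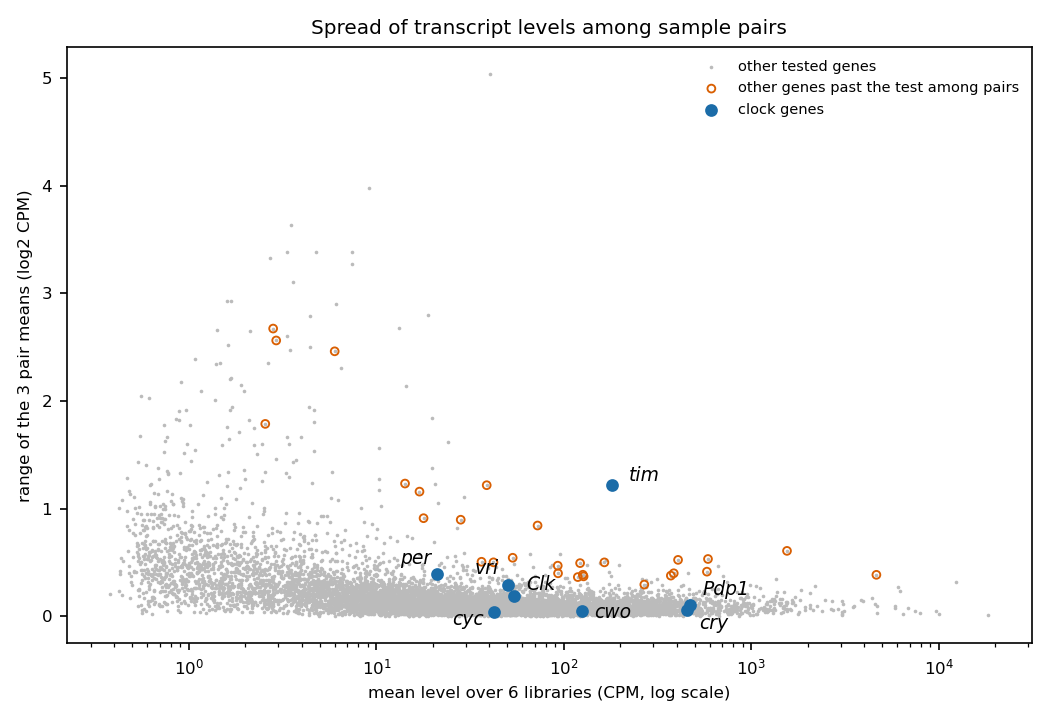
Range of the 3 pair means of each tested gene, in log2 CPM, against its mean level over 6 libraries in CPM on a log axis. Blue points are the clock genes, open orange circles the other genes that passed the test among pairs, and grey points the remaining genes. At 1.22, tim is the 1 gene above 100 CPM with so wide a range, while cyc, cwo, cry and Pdp1 range by 0.04 to 0.10.

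No other clock gene passed among pairs, although per, vri and Clk had an unadjusted p under 0.05, as did 12.7% of all tested genes. The transcription repressor gene per (FBgn0003068, chromosome X, 2685580 to 2692780) was lowest in pair 1 in both genotypes. It had 18.6, 27.5 and 26.4 CPM in PCD-blocked libraries of pairs 1, 2 and 3, and 16.1, 18.7 and 19.1 CPM in control libraries. Its log2 difference was -0.40 ± 0.10 (SE) for pair 1 minus pair 2 (edgeR adjusted p = 0.410) and -0.38 ± 0.10 for pair 1 minus pair 3 (0.115). The pairs in which per and tim were lowest thus differed.

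The repressor gene vri (FBgn0016076, chromosome 2L, 5288944 to 5311223) was lowest in pair 3, the pair in which tim was highest. It had 64.0, 70.1 and 56.3 CPM in PCD-blocked libraries of pairs 1, 2 and 3, and 39.9, 39.4 and 32.5 CPM in control libraries. The log2 difference was 0.23 ± 0.06 (SE) for pair 1 minus pair 3 (edgeR adjusted p = 0.115) and 0.30 ± 0.06 for pair 2 minus pair 3 (0.154). The second of these passed without an expression filter (edgeR adjusted p = 0.0495) and without PCD-blocked 1 (0.0480).

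Clk (FBgn0023076, chromosome 3L, 7763233 to 7775603), which encodes the activator, was lowest in pair 3 as well. Its PCD-blocked libraries had 55.5, 57.3 and 48.0 CPM in pairs 1, 2 and 3, and its control libraries 56.7, 55.9 and 51.5 CPM. The log2 difference of pair 2 minus pair 3 was 0.19 ± 0.05 (SE) (edgeR adjusted p = 0.349). The other members, each counted over all its transcripts, varied little from pair to pair. The range of their pair means was 0.10 for Pdp1, 0.06 for cry, 0.05 for cwo and 0.04 for cyc on the log2 scale, against a median of 0.12 over all tested genes. Without tim the median range of the members was 0.10.

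The evening genes were next set against each other and against the morning genes across the libraries. In both genotypes the library with the highest tim value, that of pair 3, had the lowest vri value, although vri did not pass among pairs. After the group mean was subtracted from log2 CPM, the Pearson correlation of tim over the 6 libraries was -0.93 with vri, -0.87 with Clk, -0.77 with Pdp1, -0.59 with cry, 0.04 with cwo and 0.06 with per. That of vri was 0.93 with Pdp1 and 0.93 with Clk. These correlations rest on 3 pairs and on libraries with shared scaling and describe these samples only. Ratios between genes were taken from log2 CPM, which includes a prior count of 2. That of tim to per was 9.11, 4.48 and 10.5 in PCD-blocked libraries of pairs 1, 2 and 3. In control libraries it was 9.55, 5.50 and 13.1. The ratio of tim to vri was 2.66, 1.76 and 4.91 in PCD-blocked and 3.86, 2.63 and 7.72 in control libraries. In both ratios pair 2 was lowest and pair 3 highest in each genotype. This is the order of tim itself, the numerator of both, so it is no separate result.

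The mean log2 CPM of the evening genes per, tim, vri, Pdp1 and cwo minus that of the morning genes Clk and cry was -0.54, -0.56 and -0.19 in PCD-blocked libraries of pairs 1, 2 and 3. It was -0.89, -0.95 and -0.75 in the control libraries. Pair 3 had the highest value in both genotypes. Without tim the same difference was -0.72, -0.61 and -0.49 in PCD-blocked and -1.09, -1.02 and -1.10 in control libraries, so that pair 3 was no longer the highest among controls.

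**Figure D3:**
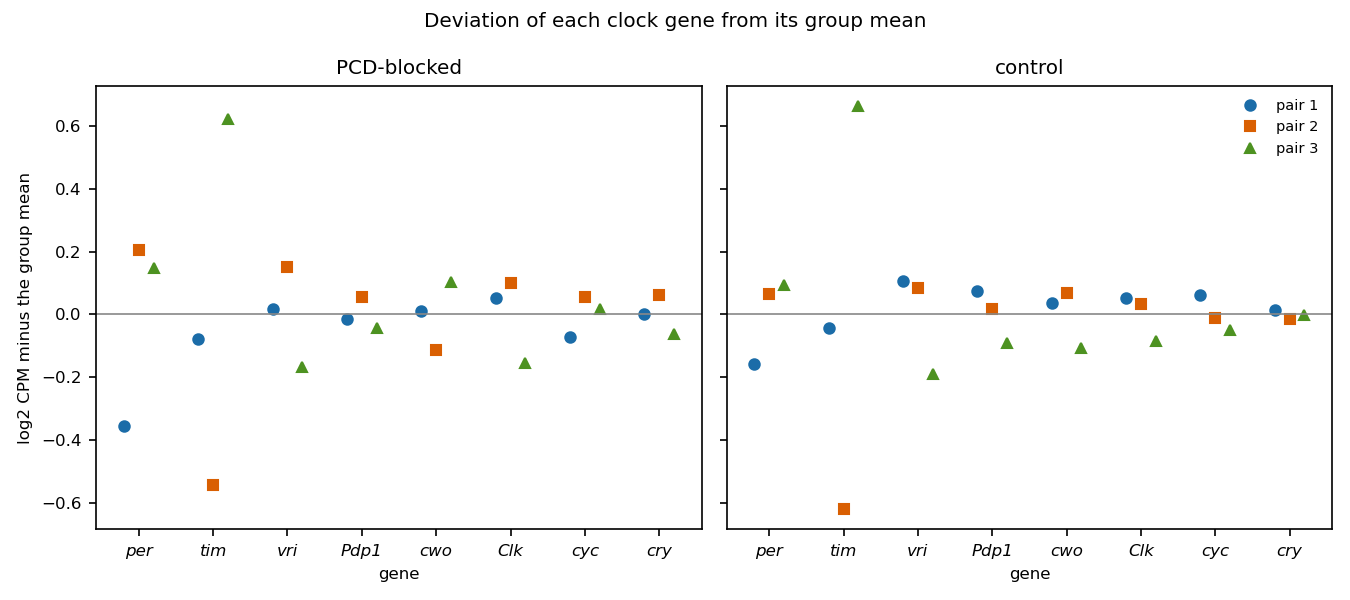
Deviation of each clock gene from its group mean, in log2 CPM, with the PCD-blocked group on the left and the control group on the right. Each marker is 1 library and its shape and colour give the sample pair. The tim markers of pair 3 lie at 0.62 in PCD-blocked and 0.66 in control libraries and those of pair 2 at -0.54 and -0.62, while vri and Clk are lowest in pair 3.

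PCD-blocked antennae were compared with controls to see which transcripts change when cell death is blocked, here with the pair as a block. Among the clock genes, vri, per and tim were higher in PCD-blocked antennae, cry and cyc were lower, and Pdp1, cwo and Clk did not pass (edgeR quasi-likelihood test, adjusted p under 0.05). That is 5 of 8, where 27.7% of all tested genes passed, 14.3% higher and 13.3% lower. The groups did not overlap for 3 of the 8, against 38.7% of tested genes. Of the 8, 3 were higher in PCD-blocked antennae in all 3 pairs, against 29% of tested genes. Another 2 were lower in all 3, against 27.8%. These 5 are the genes that passed, and the test had the pair as a block, so their direction is no separate support. The median log2 fold change of the members was 0.02, against 0.00 over all tested genes. In bulk tissue, fewer cells of a type and less RNA per cell cannot be told apart.

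The rise of vri was the largest of the 8. Its group mean was 63.5 ± 6.92 CPM in PCD-blocked and 37.3 ± 4.13 CPM in control antennae, a 1.70-fold rise (0.77 ± 0.05 SE on the log2 scale, edgeR adjusted p = 1.05e-05). Every PCD-blocked library lay above every control library, which held for 19.9% of tested genes. Within pairs 1, 2 and 3 the log2 difference was 0.68, 0.83 and 0.79. The call held in all 10 alternatives, with log2 fold changes of 0.73 to 0.81. The other gene of this loop, Pdp1 (FBgn0016694, chromosome 3L, 7811458 to 7867369), which encodes the activator that shares the target sites of vri, did not move with it. It had 463, 486 and 454 CPM in PCD-blocked libraries and 494, 476 and 441 CPM in control libraries, with a log2 fold change of -0.01 ± 0.04 (SE, edgeR adjusted p = 0.919). Counts are summed over all transcripts of a gene, so a change in only some transcripts of Pdp1 could be hidden.

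The photoreceptor gene cry (FBgn0025680, chromosome 3R, 19212154 to 19215442) was lower in PCD-blocked antennae. It had 409, 426 and 392 CPM in PCD-blocked libraries of pairs 1, 2 and 3, and 503, 493 and 498 CPM in control libraries. The groups did not overlap, as for 18.8% of tested genes in this direction. The log2 fold change was -0.28 ± 0.04 (SE, edgeR adjusted p = 0.000544), and the call held in all 10 alternatives. Part of its exons, 329 bases, is shared on the same strand with lncRNA:CR46393, a transcript not analysed here.

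Both repressor genes of the main loop were higher in PCD-blocked antennae. For per the group mean was 24.2 ± 4.84 CPM in PCD-blocked and 18.0 ± 1.67 CPM in control antennae (0.42 ± 0.08 SE on the log2 scale, edgeR adjusted p = 0.00410). The groups overlapped, because PCD-blocked 1 lay below controls 2 and 3, but per was higher in PCD-blocked in 3 of 3 pairs, by 0.21, 0.55 and 0.47. It did not hold under DESeq2 (adjusted p = 0.0565) or with pair 2 left out (0.0717 by edgeR). The exons of per overlap 49 bases of those of its neighbour dyw on the opposite strand. Between groups dyw had a log2 fold change of 0.72 ± 0.16 (SE, edgeR adjusted p = 0.00957, lost with DESeq2 and without pair 1 or pair 2), at 5.14 ± 0.473 CPM in PCD-blocked and 3.12 ± 0.299 CPM in control antennae, and its part in the value of per was not tested.

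For tim the rise was small beside its spread among pairs. The group mean was 190.3 ± 78.6 CPM in PCD-blocked and 170.0 ± 75.4 CPM in control antennae, with a log2 fold change of 0.17 ± 0.04 (SE, edgeR adjusted p = 0.00739). Within pairs 1, 2 and 3 the difference was 0.14, 0.25 and 0.14 on the log2 scale, higher in PCD-blocked each time. With no block the adjusted p was 0.774 (edgeR), and without pair 2 it was 0.0877. The range among pairs, 1.22, was thus far wider than the difference between genotypes. Exons of tim overlap 151 bases of snoRNA:Or-CD16 on the same strand and 545 bases of lncRNA:CR46495 on the opposite strand, neither of which was analysed here.

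The activator genes came next. The transcript of cyc (FBgn0023094, chromosome 3L, 19813770 to 19815938) was lower in PCD-blocked antennae, with 37.1, 40.6 and 39.5 CPM in PCD-blocked and 47.5, 45.1 and 44.01 CPM in control libraries of pairs 1, 2 and 3. The groups did not overlap and the log2 fold change was -0.22 ± 0.06 (SE, edgeR adjusted p = 0.0178). It too did not hold under DESeq2 (adjusted p = 0.206), nor with pair 1 (0.0760 by edgeR) or pair 2 (0.0560) left out. Its partner Clk had a log2 fold change of -0.03 ± 0.04 (SE, edgeR adjusted p = 0.662), at 53.6 ± 4.94 CPM in PCD-blocked and 54.7 ± 2.79 CPM in control antennae. The ratio of Clk to cyc, again from log2 CPM, was 1.22 to 1.49 in PCD-blocked and 1.17 to 1.24 in control libraries. The repressor gene cwo (FBgn0259938, chromosome 3R, 10388258 to 10400752) had 127, 117 and 135 CPM in PCD-blocked and 126, 128 and 114 CPM in control libraries. Its sign differed among pairs, with log2 differences of 0.02, -0.14 and 0.25 in pairs 1, 2 and 3, and the adjusted p was 0.651 with edgeR.

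**Figure D4:**
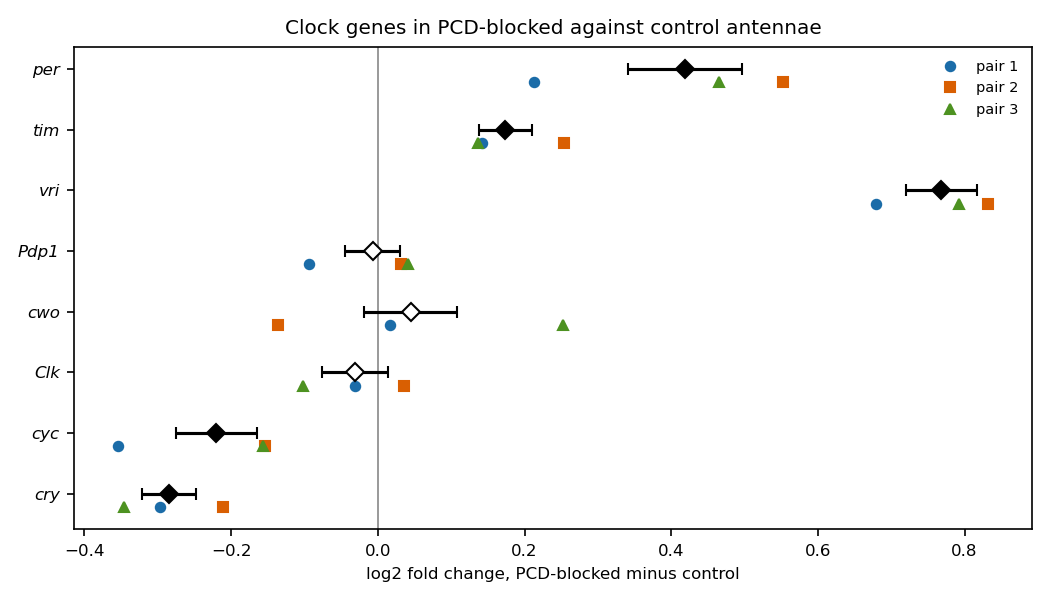
Log2 fold change of each clock gene, PCD-blocked minus control. Diamonds with bars are the fitted value and its SE, filled where the adjusted p was under 0.05, and the small markers are the difference within each sample pair, which has no error of its own. The values of vri lie at 0.68 to 0.83 in the 3 pairs and those of cry at -0.35 to -0.21, while cwo changes sign.

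By the genotype notation the groups differ on chromosome 2, where PCD-blocked flies carry the UAS-p35 chromosome and controls a wild-type one, and tim and vri lie on its left arm. On 2L, 27.2% of tested genes passed between groups, close to the 27.7% of all tested genes. On 2R, the other arm of this chromosome, 29.6% passed, and over all arms the share ran from 23.6% (X) to 38.2% (chromosome 4). Of the 3 nearest tested genes on either side of vri, Nin passed, with a log2 fold change of -0.13, and the other 5 did not, with values of -0.48 (Cyp4ac3) to 0.21 (CG14024). Of those beside tim, Thor, the gene of the translation inhibitor 4E-BP, passed with 1.08 and Spindly with -1.44, while the other 4 did not pass, with values of -0.68 (CG15414) to -0.05 (CG17593). None of these 6 beside tim passed among pairs, with adjusted p from 0.286 (Thor) to 0.997 (CG17593) in edgeR. Their pair means ranged by 0.008 (CG17593) to 1.23 (Pgant4) on the log2 scale, with 0.70 for Thor. Pgant4 was hardly expressed, at 0.52 CPM in PCD-blocked and 0.73 CPM in control antennae. The neighbours were chosen by position after the member values were known.

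Markers of other cells were read beside these differences. The 6 glial markers summed to 3224 to 3363 CPM in PCD-blocked and 3792 to 3846 CPM in control libraries, mostly Gs2, which fell by 0.24 on the log2 scale, while the glial nuclear gene repo rose by 0.34. The 6 neuronal markers summed to 3316 to 3565 CPM in PCD-blocked and 3301 to 3401 CPM in control libraries. The 6 muscle markers summed to 188 to 245 CPM in PCD-blocked and 181 to 223 CPM in control libraries. Most of that sum was Tm1, with 182 to 194 CPM in PCD-blocked and 172 to 181 CPM in control libraries. Mhc had 0 to 21.6 CPM in PCD-blocked and 1.27 to 16.9 CPM in control libraries. The 6 fat body markers summed to 68.6 to 80.3 CPM in PCD-blocked and 44.9 to 177 CPM in control libraries. Within that sum the genes moved opposite ways. The lipoprotein gene apolpp rose by 1.44 ± 0.07 (SE) on the log2 scale, at 54.6 ± 1.09 CPM in PCD-blocked and 20.2 ± 2.74 CPM in control antennae (edgeR adjusted p = 3.91e-06). The yolk protein genes Yp2 and Yp3 fell, with log2 fold changes of -1.59 and -2.04 that were lost as calls in 3 of 10 alternatives each, and were highest in control 1, with 65.1 and 70.6 CPM. The 6 maxillary palp markers summed to 5.54 to 8.14 CPM in PCD-blocked and 4.20 to 5.96 CPM in control libraries. Among pairs edgeR called 0 of the 33 tested markers, 8 having an unadjusted p under 0.05, and DESeq2 called Obp83b and nrv2. The part of these cells in the clock gene differences was not tested.

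Genes outside the core loops, which act on the clock or carry its output, were read in 4 lists. Among pairs edgeR and limma-voom each called 0 of their 51 tested genes, 8 having an unadjusted p under 0.05 with each tool. DESeq2 called 1, takeout, but gave no adjusted p for some genes, regucalcin among them, which then counted as not called. Of 16 tested kinases, phosphatases and turnover factors that act on clock proteins, 1 rose and 1 fell between groups, and 14 did not pass. Over all tested genes 27.7% passed, 14.3% higher and 13.3% lower. The phosphatase subunit gene tws, whose product stabilises the per protein, fell by 0.17 ± 0.04 (SE, edgeR adjusted p = 0.00705) and the kinase gene nmo rose by 0.12 ± 0.04 (edgeR adjusted p = 0.0357), a call lost in 6 of 10 alternatives. The smallest p among pairs in that list was that of nmo (edgeR adjusted p = 0.430).

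Of 11 tested regulators of transcription and translation, 3 rose and 0 fell, near the 27.7% of all tested genes. These were kay, the fly Fos gene (0.29 ± 0.04 SE), the nuclear receptor gene ftz-f1 (0.19 ± 0.04) and the RNA-binding protein gene lark (0.13 ± 0.03), of which lark was lost in 5 of 10 alternatives and ftz-f1 in 1, with DESeq2 (adjusted p = 0.105). The forkhead gene CHES-1-like had an unadjusted p = 0.00485 among pairs and an adjusted p = 0.184 with edgeR. Of 8 tested genes of light and temperature input, 2 rose and 0 fell, again near 27.7%: Ir25a, a receptor subunit with a role in temperature entrainment, by 0.45, and the phospholipase gene Plc21C by 0.13, a call lost in 4 of 10 alternatives. The phospholipase gene norpA, used in vision and in the antenna, had an adjusted p = 0.302 among pairs (edgeR).

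Among 16 tested output genes, 3 rose and 2 fell in PCD-blocked antennae, near the 27.7% of all tested genes. The largest change was in e, the ebony gene, whose enzyme conjugates amines to beta-alanine and which cycles in heads. It had 8.79, 9.66 and 8.65 CPM in PCD-blocked and 3.97, 3.64 and 1.73 CPM in control libraries of pairs 1, 2 and 3, so the groups did not overlap, and the log2 fold change was 1.57 ± 0.20 (SE, edgeR adjusted p = 0.000586). The potassium channel gene Shaw rose by 0.24 and the sodium leak channel gene na by 0.14. The gene unc79, for a partner of that channel, fell by 0.45, and the neuropeptide gene Dh31 fell by 0.47. Calls were lost in 5 of 10 alternatives for na, 3 for Dh31 and 1 for unc79. The secreted protein gene to (takeout), which cycles in heads, had its highest value of each genotype in pair 1. It had 2438, 2199 and 2170.0 CPM in PCD-blocked and 2454, 1978 and 1868 CPM in control libraries of pairs 1, 2 and 3, with an adjusted p = 0.115 among pairs with edgeR. DESeq2 called it (adjusted p = 1.54e-05), as did the fits with no expression filter (0.0211 with edgeR) and without PCD-blocked 1 (0.0175). The neuropeptide gene Pdf of the brain clock had 0 counts in all libraries, which allows up to 0.168 to 0.192 CPM per library.

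The genes most like tim across the libraries were sought among all tested genes, by a correlation of at least 0.9 in the deviation of log2 CPM from the group mean over 6 libraries, and then by the widest range of pair means. Of 227 such genes the widest were CG12158, lncRNA:CR44953, CG4681, CG5639 and CG10710. CG5639 was the only one of the 5 with more than 10 CPM, and it was second to tim in the test among pairs. It had 78.7, 66.0 and 118 CPM in PCD-blocked and 53.4, 42.1 and 76.2 CPM in control libraries of pairs 1, 2 and 3, in the order of tim in both genotypes. Its range of pair means was 0.84 on the log2 scale and its adjusted p among pairs was 0.000531 with edgeR. CG5639 was picked for likeness to tim and a wide range, so its order, range and p among pairs are no separate result. CG12158 had 2.61, 1.68 and 5.17 CPM in PCD-blocked and 3.45, 2.43 and 6.24 CPM in control libraries, with an adjusted p = 0.0554 among pairs with edgeR, which passed in 6 of 12 alternatives.

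Of 219 genes as much like Clk, the widest were Hsp23, CG13739, CG33191, Hsp26 and Hsp27, of which Hsp23, Hsp26 and Hsp27 encode small heat shock proteins. Hsp26 had 37.01, 42.9 and 19.0 CPM in PCD-blocked and 3.57, 2.72 and 1.91 CPM in control libraries of pairs 1, 2 and 3, and like Clk was lowest in pair 3 in both genotypes. It passed among pairs (edgeR adjusted p = 0.0438), as did Hsp23 (0.0438), while Hsp27 did not (0.103). Both calls were lost without any 1 of PCD-blocked 2 and 3 and controls 2 and 3, with adjusted p up to 0.555 for Hsp26 and 0.458 for Hsp23 (edgeR). Clk itself did not pass among pairs (edgeR adjusted p = 0.272). These genes were picked for likeness to Clk and a wide range, so their low in pair 3 and their calls are no separate result.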

How the data were processed

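Transcripts were measured by poly(A) RNA-seq from 100 ng of total RNA per library with a directional kit, per the labels' protocols. The deposited values are read counts per gene, 1 table per library. Build BDGP6 is named in the submitters' processing notes, along with STAR 2.5.3a, cutadapt 1.8 and HTSeq 0.9.1. Which annotation release and strand setting they used is not stated in these notes or the labels. The 5 rows that name no gene, 11.9% to 13.5% of counts, were left out. Symbols and coordinates, counted from 1, are those of an Ensembl annotation of BDGP6, which held 17560 of the 17698 identifiers.

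Genes were tested with edgeR 4.0.16 (R 4.3.3): TMM scaling, default expression filter by group, trended dispersions, quasi-likelihood F-tests, Benjamini-Hochberg adjustment over 9181 genes and a threshold of 0.05. One model with genotype and sample pair gave both comparisons and has 2 residual degrees of freedom. SEs come from the fold change and its F statistic. The pair is a block in the model, since the submitters describe the samples as paired. Deviations of same-numbered libraries from their group means correlated by 0.07, 0.24 and -0.19 over all genes. Log2 CPM used a prior count of 2. Each library pools many flies, so p-values reflect only how far such pools differ. No 2 libraries within a group agreed to within counting error (chi-square per degree of freedom 3.96 to 10.1). The fit was tested on simulated data. The members and lists were chosen with earlier results of these data known, and the named genes by rule: all members, up to 5 per clock list by p, up to 4 per marker list and 5 by likeness to tim and to Clk. Outside this rule, and chosen after their values were seen, are dyw, the neighbours, Cyp6a8, Pdf, nan, iav, ninaE, Obp83b, nrv2 and Mhc. Alternatives were DESeq2 1.42.0, limma-voom 3.58.1, size factors by the median of ratios, other filters, scaling without genes above 1% of counts, no block, no genotype term and left-out pairs or libraries.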

Additional observations from a re-analysis of the deposited data

How the results depend on the processing

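Of the recomputed values, 656 stayed the same, 81 became weaker, 36 became stronger and 7 changed sign. For a gene, the same means the same direction and side of the threshold, and weaker or stronger that its call was lost or gained. For a count of called genes, weaker or stronger means a 1.5-fold fall or rise. The rise of vri and the fall of cry held in all 10 alternatives. Clock genes called between groups numbered 5, 3 with DESeq2 and 2 to 5 with 1 pair left out, 2 being without pair 2. Genes called between groups numbered 2539, 1315 with DESeq2 and 1481 to 2071 with 1 pair left out. Without the replicate block 2134 genes and 4 clock genes were called, tim being lost. The labels and the design text give the pairing, although the deviations of same-numbered libraries correlated by over 0.1 in pair 2 only (0.24). Clock genes called among pairs numbered 1 in each leave-out, 2 with no expression filter (vri joined, adjusted p = 0.0395 with edgeR) and 0 with no genotype term. Over all genes 29 passed among pairs, 3 to 91 with 1 library left out (3 without PCD-blocked 2 or control 2, 11 without control 3, 49 without control 1, 91 without PCD-blocked 1), 87 with DESeq2, 200 with no filter, 46 with the stricter filter of 1 CPM in 3 libraries, 47 with scaling without genes above 1% of counts and 0 with no genotype term. For pair 1 against pair 2 the count of 1 became 16 with DESeq2, 13 with no filter, 0 with no genotype term and 0 to 14 in the leave-outs (0 without PCD-blocked 2, control 2 or control 3, with 407, 432 and 733 at an unadjusted p under 0.05 in edgeR, and 14 without control 1). For pair 1 against pair 3 the count of 90 became 255 with no filter, 0 with no genotype term and 11 to 92 in the leave-outs (11 without PCD-blocked 2, 24 without control 2 and 35 without PCD-blocked 3 or control 3). For pair 2 against pair 3 the count of 4 became 9 with median-of-ratios factors, 20 with DESeq2, 7 with limma-voom, 52 with no filter, 10 with the stricter filter and with the 1% scaling, 0 with no genotype term and 2 to 62 in the leave-outs (2 without PCD-blocked 2 or control 2, 62 without PCD-blocked 1). With no genotype term edgeR had 170 genes at an unadjusted p under 0.05 among pairs, and 130, 327 and 147 in the contrasts of pairs 1 and 2, 1 and 3, and 2 and 3. Between groups Pdp1 changed sign over the leave-outs (-0.0294 to 0.0321), as did cwo (-0.0580 to 0.135) and Clk (-0.0662 to 0.00469). Among pairs the sign changed over the leave-outs for vri in pair 1 minus pair 2 (-0.123 to 0.00371), Clk in pair 1 minus pair 2 (-0.0653 to 0.0375) and per in pair 2 minus pair 3 (-0.0936 to 0.115). The cause was not tested. DESeq2 gave no adjusted p among pairs for per, vri and cyc, nor for tim in pair 1 against pair 2. In the DESeq2 counts, genes and markers without an adjusted p counted as not called. With 1 library per genotype and pair, whether the genotype difference itself varies among pairs could not be tested.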
